A study of Homo sapiens with 9 samples.

Results

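The 10 genes described here lie on the long arm of human chromosome 3 (3q) and were picked by symbol because they hold some of the strongest HP1γ or LSD1 peaks of the data set. They are MECOM, FNDC3B, ACAP2, ATP11B, PEX5L, NLGN1, SPATA16, ATP13A4, MUC4 and LMLN, 10 of the 20318 genes of the H2A table and 10 of its 572 genes on 3q. The values that chose them are the peak scores, so scores and peak counts are given as a description and no test was made on them. The data are 9 chromatin immunoprecipitation libraries from T47D-MTVL, a derivative of the luminal breast cancer line T47D that carries a reporter under the promoter of mouse mammary tumour virus. All cells were first kept in charcoal-stripped serum and then without serum for 1 day, and were then given the synthetic progestin R5020 at 10 nM for 30 or 60 min or were left unstimulated (0 min). HP1γ, LSD1 and BPTF were each profiled at 30 and 0 min and histone H2A at 0, 30 and 60 min, with 1 library per antibody and time. No difference between times therefore has a replicate check, and no p-value is given. RNA was not measured in these libraries, so neither the cell type markers nor the expression of the 10 genes could be examined.

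HP1γ (the product of CBX3) binds methylated histone H3 in heterochromatin and is also found in the bodies of transcribed genes. LSD1 (KDM1A) removes methyl groups from histone H3 and works within corepressor complexes as well as with nuclear receptors. BPTF is the largest subunit of NURF, a remodeller that slides nucleosomes, and H2A is a core histone of the nucleosome. In progestin-treated breast cancer cells the ligand-bound progesterone receptor recruits or releases such factors within minutes.

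The values below refer to peaks on 5 stretches of sequence, shown because they carry the shared or the strongest peaks. All are from GRCh37, plus strand, in lower case. The first 3 are the only stretches within the 10 genes that peaks of HP1γ and LSD1 at both times covered together, with the middle 300 bases shown where a stretch was longer. Capitals in MUC4 mark 1 copy of a 32-base unit that repeats in tandem, with 97% of bases matching the base 32 positions on.
NLGN1, chr3:173619386-173619685: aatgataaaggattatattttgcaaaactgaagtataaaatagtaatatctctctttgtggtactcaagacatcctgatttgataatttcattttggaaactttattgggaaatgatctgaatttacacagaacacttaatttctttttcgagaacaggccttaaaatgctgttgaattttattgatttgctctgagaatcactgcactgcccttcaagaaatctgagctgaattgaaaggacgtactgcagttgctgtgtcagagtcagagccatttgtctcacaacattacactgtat
ATP13A4, chr3:193263167-193263380: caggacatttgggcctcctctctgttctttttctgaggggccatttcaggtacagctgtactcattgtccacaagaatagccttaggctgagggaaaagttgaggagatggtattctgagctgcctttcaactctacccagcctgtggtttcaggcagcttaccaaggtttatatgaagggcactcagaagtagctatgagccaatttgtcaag
MUC4, chr3:195498048-195498347: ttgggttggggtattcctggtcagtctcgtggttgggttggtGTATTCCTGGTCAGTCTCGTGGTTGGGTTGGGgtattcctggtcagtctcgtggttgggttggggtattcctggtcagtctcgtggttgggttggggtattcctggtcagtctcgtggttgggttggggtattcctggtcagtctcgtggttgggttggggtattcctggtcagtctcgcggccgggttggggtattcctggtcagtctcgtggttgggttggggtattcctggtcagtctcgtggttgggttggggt
The next 2 belong to peaks of the highest scores. They are the middle of the top HP1γ peak of the whole 0 min list (FNDC3B) and the middle of the top HP1γ peak within any named gene at 30 min (ATP13A4). Capitals in the last mark a match to ACANNNTGT, described further on.
FNDC3B, chr3:172004456-172004755: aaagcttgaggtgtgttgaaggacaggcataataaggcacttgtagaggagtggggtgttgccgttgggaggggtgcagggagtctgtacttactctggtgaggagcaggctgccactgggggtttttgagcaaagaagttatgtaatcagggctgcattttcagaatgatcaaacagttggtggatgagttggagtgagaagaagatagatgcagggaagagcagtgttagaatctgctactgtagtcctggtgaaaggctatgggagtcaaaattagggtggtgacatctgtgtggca
ATP13A4, chr3:193291357-193291656: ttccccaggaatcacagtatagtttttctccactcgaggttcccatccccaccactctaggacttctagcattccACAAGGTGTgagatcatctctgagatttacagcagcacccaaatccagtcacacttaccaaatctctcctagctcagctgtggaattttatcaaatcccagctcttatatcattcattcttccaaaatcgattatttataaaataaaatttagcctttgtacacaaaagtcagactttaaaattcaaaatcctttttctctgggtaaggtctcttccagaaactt

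Peaks of each list were counted where they overlapped the gene body of the H2A table plus 5 kb on each side. The 10 windows together span 2.87 Mb. They held 234 HP1γ peaks at 30 min against 259 at 0 min, and 186 LSD1 peaks at 30 min against 337 at 0 min. Every one of the 10 genes had at least 1 peak in each of these 4 lists. Over all genes the share with a peak was 25.7% for HP1γ at 30 min and 29.9% at 0 min, and 24.5% for LSD1 at 30 min and 26.1% at 0 min. A gene with a peak scored at least 100 was rare in the genome, at 0.0394% of genes for HP1γ at 30 min and 0.143% at 0 min, and 0.0394% for LSD1 at 30 min and 0.162% at 0 min. Of the 10 genes, 2 held such a HP1γ peak at 30 min and 6 at 0 min, and 1 held such a LSD1 peak at 30 min and 6 at 0 min. Since the genes were picked on these scores, nothing is read from those shares. Such peaks also lay elsewhere on 3q. All of 3q held 6 of the 17 such HP1γ peaks at 30 min and 27 of 48 at 0 min, the 10 genes 2 and 6. For LSD1 it held 2 of 20 at 30 min and 61 of 83 at 0 min, the 10 genes 1 and 9.

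The score is the authors' own value per peak, and no source used here defines it. The lowest score is 30.01 in the HP1γ list at 30 min and 30.0 in the other 3 lists, so weaker peaks were not listed. The 23836 HP1γ peaks at 30 min and 31845 at 0 min, like the 20495 LSD1 peaks at 30 min and 34990 at 0 min, come from separate calls of unstated control and depth. The ratio of peak counts, 30 min over 0 min, was 0.903 for HP1γ in the 10 genes, 0.755 on the rest of 3q and 0.749 over all chromosomes. For LSD1 the same ratio was 0.552 in the 10 genes, 0.475 on the rest of 3q and 0.586 over all chromosomes. In these genes and genome-wide the ratio was lower for LSD1 than for HP1γ.

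**Figure D1:**
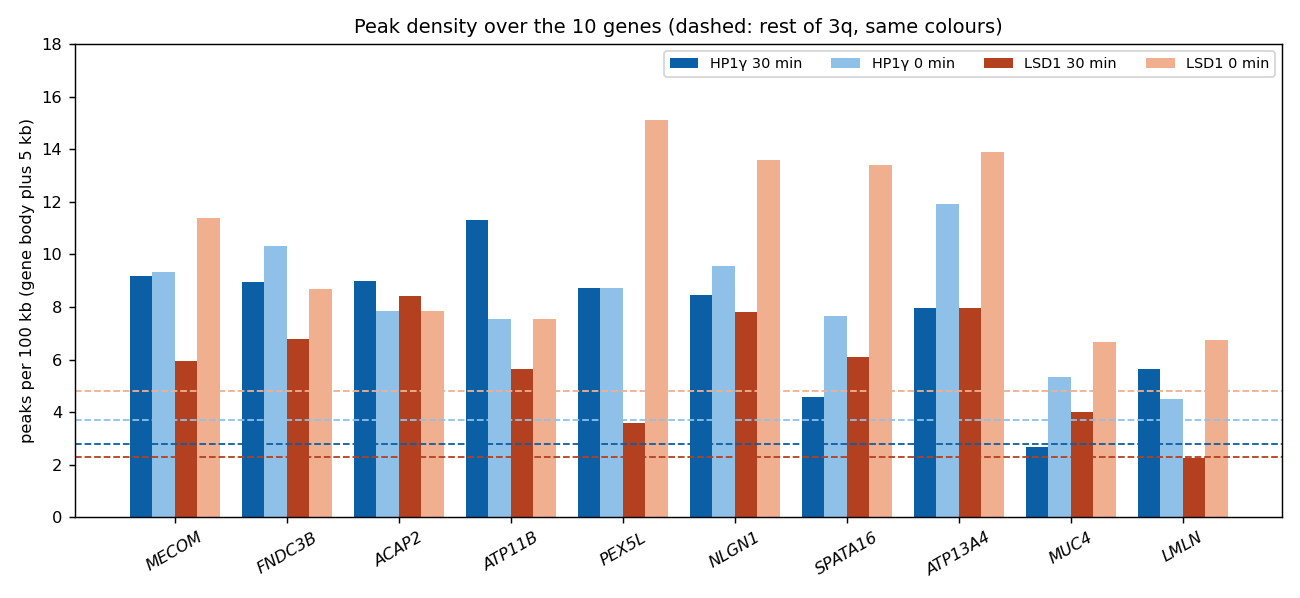
Peaks per 100 kb (y axis) over the body of each gene plus 5 kb in the HP1γ and LSD1 lists at 30 and 0 min; dashed lines give the density over the rest of 3q in the same colours. LSD1 at 0 min is densest over PEX5L (15.1 per 100 kb), while LMLN (2.25, LSD1 at 30 min) and MUC4 (2.66, HP1γ at 30 min) are close to the rest of 3q.

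MECOM encodes a zinc finger transcription factor of blood stem cells that is rearranged in some myeloid leukaemias (ENSG00000085276, chr3:168802549-169381258, minus strand). It held 54 HP1γ peaks at 30 min against 55 at 0 min, and 35 LSD1 peaks at 30 min against 67 at 0 min. The number of HP1γ peaks was thus nearly level while the LSD1 list was shorter at 30 min, with a ratio of 0.522. The highest HP1γ score in MECOM was 94.03 at 30 min, in an intron 234.6 kb from the start of the gene, against 122.95 at 0 min at chr3:169341420-169342463, 39.3 kb from the start. The highest LSD1 score was 75.71 at 30 min against 127.84 at 0 min at chr3:169305879-169307084, in an intron. Around the top HP1γ peak of 0 min, a chain of overlapping peaks in the intron joined all 4 lists, with scores of 47.25 for HP1γ at 30 min and 122.95 at 0 min, and 64.19 for LSD1 at 30 min and 54.47 at 0 min. No base of that chain lay in all 4 lists.

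FNDC3B and ACAP2 encode proteins of cell membranes. FNDC3B (ENSG00000075420, chr3:171757418-172116561, plus strand) is a membrane protein with fibronectin type III domains. It held 33 HP1γ peaks at 30 min against 38 at 0 min, and 25 LSD1 peaks at 30 min against 32 at 0 min. Its intronic peak at chr3:172004042-172005170 had the highest score of the whole HP1γ list at 0 min, 155.06, while no HP1γ peak of FNDC3B scored above 63.52 at 30 min. The highest LSD1 scores were 92.12 at 30 min and 126.22 at 0 min, at different places, 47.0 and 310.4 kb from the start. ACAP2 (ENSG00000114331, chr3:194995465-195163807, minus strand) is a GTPase-activating protein for the small GTPase ARF6, which acts in endocytic traffic. It was the only one of the 10 genes with no fewer LSD1 peaks at 30 min than at 0 min, with 15 at 30 min and 14 at 0 min, and it held 16 HP1γ peaks at 30 min against 14 at 0 min. Its top LSD1 peak had the highest score of the whole 0 min list, 152.0, and the highest LSD1 score in ACAP2 at 30 min was 61.3, 34.9 kb from the start.

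ATP11B and ATP13A4 encode P-type ATPases, the pump family in which ATP11B flips phospholipids between membrane leaflets and ATP13A4 is a less studied cation-transporting member. ATP11B (ENSG00000058063, chr3:182511291-182554412, plus strand) spans 43.1 kb in the H2A table but 128.1 kb in GENCODE version 44, so part of the later gene model is outside the window. It held 6 HP1γ peaks at 30 min against 4 at 0 min, with highest scores of 61.03 at 30 min and 35.98 at 0 min. It held 3 LSD1 peaks at 30 min against 4 at 0 min, and its highest LSD1 scores, 108.64 at 30 min and 134.88 at 0 min, lay 14.5 and 9.5 kb from its start. ATP11B thus stood high in both LSD1 lists and low in the HP1γ list at 0 min. ATP13A4 (ENSG00000127249, chr3:193220334-193310900, minus strand; 90.6 kb in the table, 194.1 kb in version 44) held 8 HP1γ peaks at 30 min against 12 at 0 min and 8 LSD1 peaks at 30 min against 14 at 0 min. Its highest HP1γ score, 113.82 at 30 min at chr3:193291133-193291882, was the highest of any named gene in that list, and at 0 min its highest was 62.73. The highest LSD1 scores in ATP13A4 were 46.85 at 30 min and 95.35 at 0 min.

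PEX5L and NLGN1 are known from neurons. PEX5L (ENSG00000114757, chr3:179512746-179754718, minus strand), a relative of the peroxisomal import receptor PEX5, is an auxiliary subunit of HCN channels. It held 22 HP1γ peaks at both times but 9 LSD1 peaks at 30 min against 38 at 0 min. That LSD1 ratio of 0.237 was the lowest among the 10 genes. The highest HP1γ scores in PEX5L were 97.61 at 30 min and 124.51 at 0 min, and the highest LSD1 scores were 62.05 at 30 min and 96.14 at 0 min. NLGN1 (ENSG00000169760, chr3:173116238-174004434, plus strand), a postsynaptic adhesion protein that binds neurexins, is the longest of the 10 genes at 888.2 kb. It held 76 HP1γ peaks at 30 min against 86 at 0 min and 70 LSD1 peaks at 30 min against 122 at 0 min. At 30 min its highest HP1γ score, 105.26, and its highest LSD1 score, 89.43, came from peaks that shared 500 bases, chr3:173344544-173345043. At 0 min the highest scores in NLGN1 were 113.02 for HP1γ and 119.88 for LSD1, at other places, 204.6 and 194.9 kb from the start.

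SPATA16, MUC4 and LMLN have roles far from each other. SPATA16 (ENSG00000144962, chr3:172607148-172859058, minus strand) is needed for the acrosome of sperm. It held 12 HP1γ peaks at 30 min against 20 at 0 min and 16 LSD1 peaks at 30 min against 35 at 0 min. Its highest LSD1 score was 73.06 at 30 min against 138.01 at 0 min, and 3 of its LSD1 peaks at 0 min reached 100, more than in any other of the 10 genes, while its highest HP1γ scores were 52.59 at 30 min and 74.46 at 0 min. MUC4 (ENSG00000145113, chr3:195473636-195538760, minus strand) is a membrane-bound mucin that interacts with ERBB2. It held 2 HP1γ peaks at 30 min against 4 at 0 min and 3 LSD1 peaks at 30 min against 5 at 0 min. The highest HP1γ scores in MUC4 were 70.01 at 30 min and 117.96 at 0 min, both from peaks over an exon, 40.5 and 40.7 kb from the start, and the highest LSD1 scores were 60.84 at 30 min and 57.29 at 0 min. LMLN (ENSG00000185621, chr3:197687093-197765882, plus strand), a metallopeptidase, held 5 HP1γ peaks at 30 min against 4 at 0 min, with highest scores of 84.0 at 30 min and 108.55 at 0 min. It held 2 LSD1 peaks at 30 min against 6 at 0 min, and its highest LSD1 score of 34.84 at 30 min, against 72.55 at 0 min, was the lowest top score of the 10 genes in that list.

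**Figure D2:**
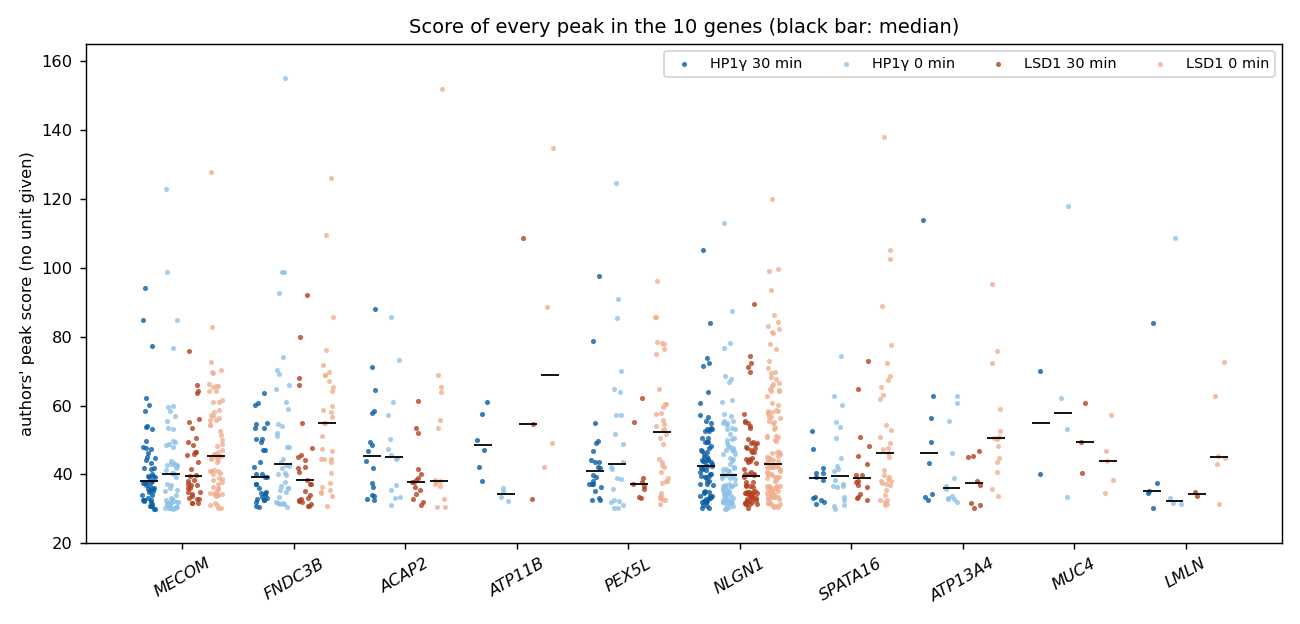
The authors' peak score (y axis, no unit given) of every HP1γ and LSD1 peak in each gene at 30 and 0 min, with black bars for medians. Most peaks lie between 30 and 60, and the highest point is the FNDC3B peak of 155.06 in the HP1γ list at 0 min.

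Most peaks in these genes had low scores. The median HP1γ score was 40.29 at 30 min and 40.52 at 0 min in the 10 genes, and 37.34 at 30 min and 35.63 at 0 min over the whole lists. The median LSD1 score was 38.38 at 30 min and 45.47 at 0 min in the 10 genes, and 36.13 at 30 min and 36.26 at 0 min over the whole lists. A score of 50 was reached by 22.6% of HP1γ peaks at 30 min and 29.3% at 0 min in the 10 genes, and by 10.3% and 10.5% of the whole HP1γ lists. For LSD1 it was reached by 19.4% at 30 min and 43.3% at 0 min in the 10 genes, and by 8.34% and 14.5% of the whole lists. The top peak could stand alone or in company. In LMLN at 0 min the second HP1γ peak scored 33.22 beside the top score of 108.55, whereas in NLGN1 at 0 min the second LSD1 peak scored 99.69 beside 119.88. At the edge of the window, the ATP13A4 flank held a LSD1 peak of 59.07 at 0 min and the next 5 kb outside held one of 78.11. Likewise a peak of 64.1 in the LSD1 list at 0 min lay 5 to 10 kb outside MUC4 and was not counted for MUC4. The top LSD1 peak at 0 min of MUC20, a relative on 3q described further on, has the same score.

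The peaks were almost all intronic and spread along the genes. Of the HP1γ peaks 213 of 234 at 30 min and 241 of 259 at 0 min lay within introns, and of the LSD1 peaks 174 of 186 at 30 min and 300 of 337 at 0 min. Exons of GENCODE version 44 took up 3.76% of the spans. The share of peaks overlapping an exon was 6.41% for HP1γ at 30 min and 5.41% at 0 min, and 4.84% for LSD1 at 30 min and 9.2% at 0 min. Peaks are much wider than a motif and can touch a short exon without lying in it, so these shares are no measure of preference for exons. Few peaks lay within 1 kb of an annotated transcript start of a protein-coding gene, including starts inside the genes, with 10 for HP1γ at 30 min and 8 at 0 min, and 4 for LSD1 at 30 min and 11 at 0 min.

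**Figure D3:**
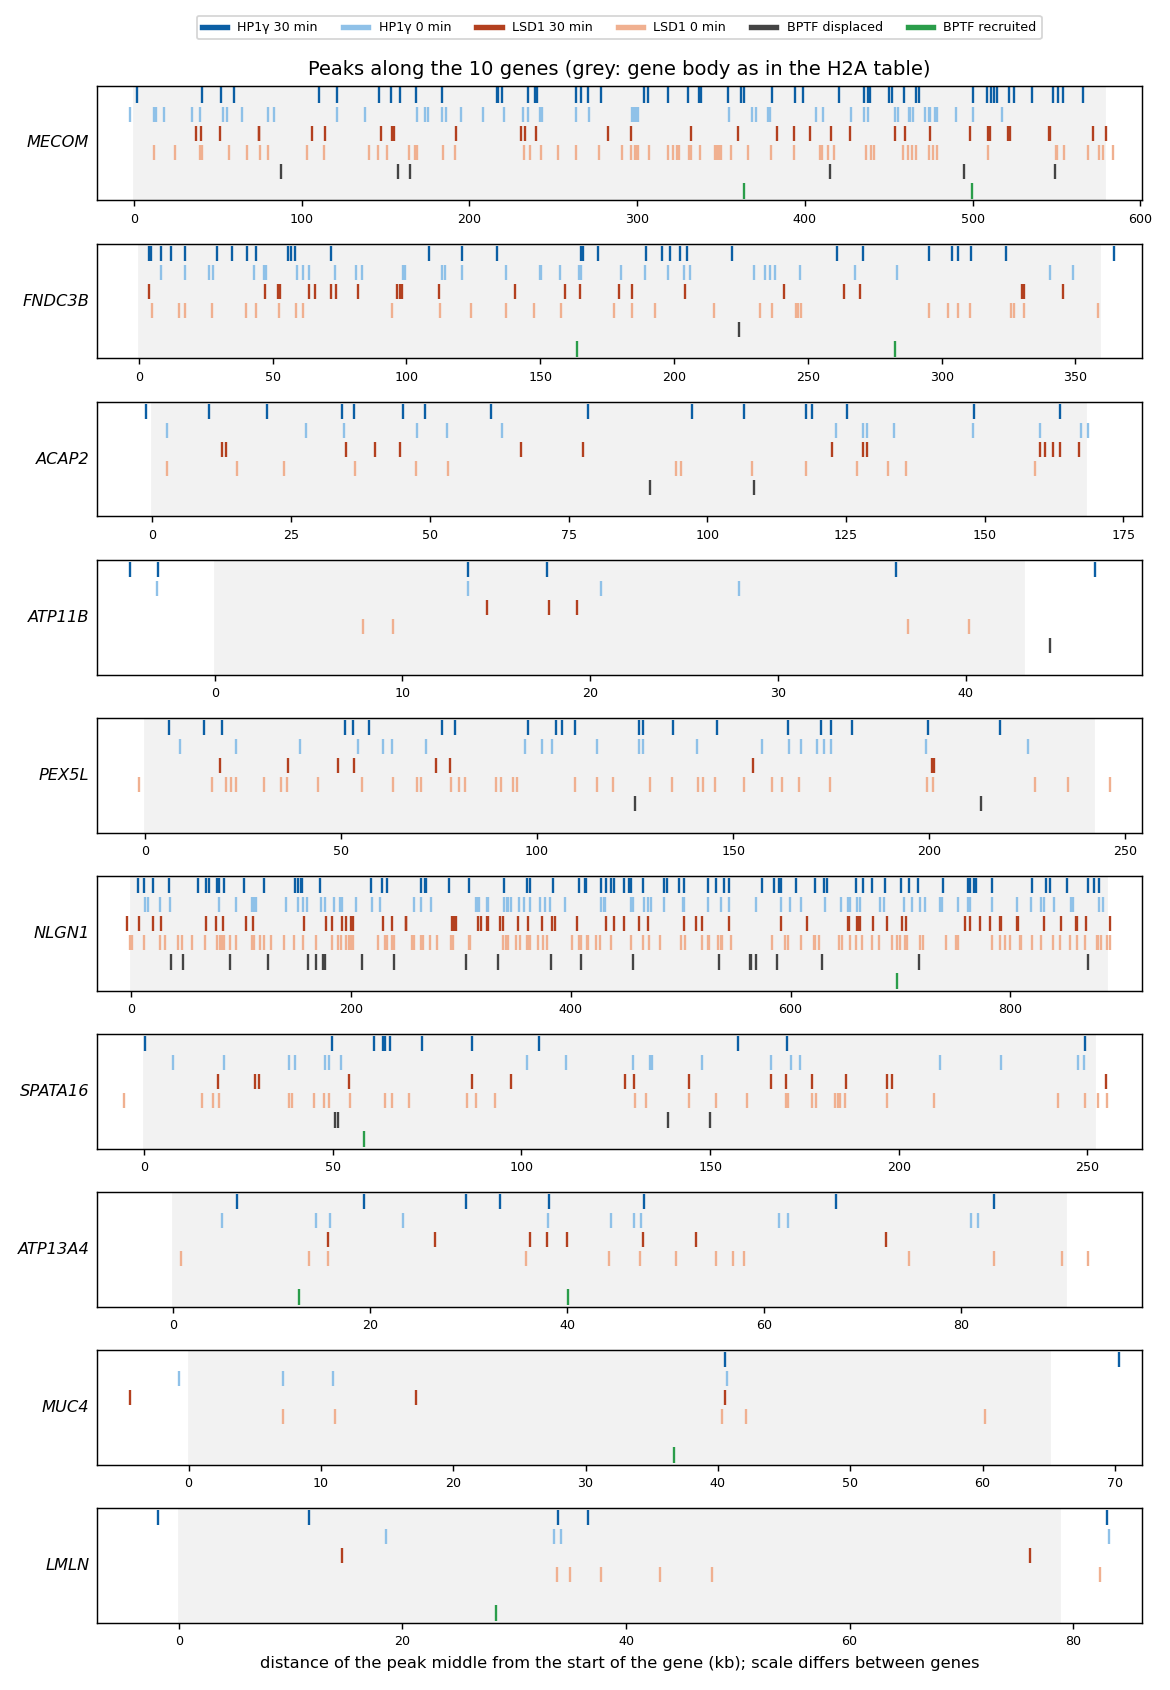
Position of each HP1γ, LSD1 and BPTF peak along the 10 genes, in kb from the start of the gene (x axis, a separate scale for each gene), with 1 row per list; the grey band is the gene body of the H2A table. Peaks run along whole bodies, and NLGN1 holds 23 displaced BPTF positions against 1 recruited position.

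Peaks of the same protein at the 2 times mostly lay at different places. Of the HP1γ peaks in the 10 genes, 48 of 234 at 30 min (20.5%, 95% Wilson interval 15.8 to 26.1%) overlapped a HP1γ peak of 0 min by at least 1 base. In the other direction 49 of the 259 HP1γ peaks of 0 min (18.9%) overlapped one of 30 min. For LSD1 the shares were 51 of 186 at 30 min (27.4%, interval 21.5 to 34.2%) and 47 of 337 at 0 min (13.9%, interval 10.7 to 18.1%). On the rest of 3q the same shares, first of the 30 min and then of the 0 min peaks, were 15% and 11.2% for HP1γ and 18.5% and 8.71% for LSD1, and over whole lists they were 5.76% and 4.31% for HP1γ and 6.38% and 3.71% for LSD1. The intervals cover counting error only and treat peaks of 1 library as independent. Peak density also differs between these regions, as given further on. Peaks were wider in the 10 genes, with medians at 30 and 0 min of 511.5 and 620 bases for HP1γ and 521 and 792 for LSD1. Over the whole lists these medians were 442 and 468 for HP1γ and 437 and 536 for LSD1. The part of density and width in these shares was not tested.

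Between the proteins, 31 of the 234 HP1γ peaks at 30 min (13.2%) overlapped a LSD1 peak of 30 min, and 31 of the 186 LSD1 peaks (16.7%) overlapped a HP1γ peak. At 0 min 74 of 259 HP1γ peaks (28.6%) and 73 of 337 LSD1 peaks (21.7%) overlapped each other. On the rest of 3q the same 4 shares, in this order, were 7.39%, 8.99%, 20.7% and 15.8%, and over whole lists they were 3.08%, 3.56%, 7.83% and 7.08%. Merging all overlapping peaks of the 6 lists gave 755 separate sites in the 10 genes, of which 524 came from 1 list. Genome-wide, 30 stretches were covered by all 4 HP1γ and LSD1 lists, and 3 of them lay in the 10 genes, 15 on the rest of 3q, none on 3p and 12 on other chromosomes. The NLGN1 stretch printed above had a HP1γ score of 72.35 at 30 min and LSD1 scores of 72.47 at 30 min and 33.58 at 0 min. For HP1γ at 0 min the highest score in the chain of overlapping peaks there was 39.0. That chain holds a further HP1γ peak of 0 min beside the stretch, so 39.0 may not be the score of the peak on it. The ATP13A4 stretch had HP1γ scores of 33.34 at 30 min and 62.73 at 0 min and LSD1 scores of 44.94 at 30 min and 40.68 at 0 min. The MUC4 stretch had HP1γ scores of 70.01 at 30 min and 117.96 at 0 min and LSD1 scores of 49.33 at 30 min and 46.72 at 0 min. Within that MUC4 stretch the sequence is repetitive, and reads from 1 repeat copy can be placed on another, so its scores are less certain. Peaks whose 31-base words mostly recur in the genome made up 1.28% of HP1γ peaks at 30 min and 5.02% at 0 min, and 4.3% of LSD1 peaks at 30 min and 0.593% at 0 min in the 10 genes. On the rest of 3q these shares were 4.1% and 5.13% for HP1γ and 5.75% and 1.95% for LSD1 at 30 and 0 min.

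BPTF was deposited as positions displaced or recruited by hormone, with no score and no stated criterion. The 10 genes held 39 displaced and 10 recruited positions, and 7 of the 10 genes had a displaced position and 7 a recruited one. Over all genes 9.14% had a displaced and 5.3% a recruited position. Only 6586 of the 20318 genes are as long as the shortest of the 10, and short genes can hold few positions, so nothing is read from these shares. Of the 17 cancer and signalling genes of 3q described further on, 8 had a displaced position and 8 a recruited one. The displaced share of all BPTF positions was 79.6% in the 10 genes (39 of 49), 80.5% on the rest of 3q and 75% over all chromosomes, and 23 of the 39 displaced positions lay in NLGN1. NLGN1 held 23 displaced positions, more than any other named gene of the H2A table, and the next, CADM2 on 3p, held 12. This is a count in a gene of 888.2 kb. Per 100 kb NLGN1 had 2.56 displaced positions, while among genes of at least 43.1 kb the highest value was 3.59 in other 3q genes and 4.86 in all genes. The NLGN1 positions ran from 36.4 to 871.1 kb from its start with a median gap of 31.2 kb between neighbours, and 1 recruited position lay 696.9 kb from the start. MECOM held 6 displaced and 2 recruited positions, and SPATA16 held 4 displaced and 1 recruited. Within these windows ATP13A4, MUC4 and LMLN held recruited positions only, 2 in ATP13A4 and 1 each in MUC4 and LMLN. The ATP13A4 window leaves out part of its later gene model. With the spans of GENCODE version 44 plus 5 kb the 10 genes together held 45 displaced and 10 recruited positions.

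Some BPTF positions overlapped HP1γ and LSD1 peaks. Of the 39 displaced positions 14 overlapped a peak of any of the 4 lists, and of the 10 recruited positions 5 did. By list, HP1γ peaks overlapped 5.13% of the displaced positions of the 10 genes at 30 min and 15.4% at 0 min, against 2.49% and 4.13% of the whole displaced list. LSD1 peaks overlapped 2.56% of them at 30 min and 12.8% at 0 min, against 2.27% and 5.37% of the whole displaced list. For displaced positions on the rest of 3q the shares at 30 and 0 min were 7.09% and 8.9% for HP1γ and 7.54% and 13.4% for LSD1. The shares of the 10 genes rest on 2 and 6 of 39 positions for HP1γ and 1 and 5 of 39 for LSD1 at 30 and 0 min. Only the HP1γ share at 0 min was higher than on the rest of 3q, but its Wilson interval, 7.25 to 29.7%, held the 8.9% found there. The interval of each other share also held the value of the rest of 3q, so no difference is read from these shares. The recruited MECOM position at chr3:168881305-168881929 overlapped HP1γ peaks of both times, scored 35.02 at 30 min and 40.28 at 0 min.

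The palindrome core ACANNNTGT, the inner part of the palindromic hormone response element that the progesterone receptor and related steroid receptors bind, was searched in the 300 bases around the middle of each peak. The core is its own reverse complement, so 1 search covers both strands, and each match to the full element also counts as a match to the core. The core was found in 8.12% of HP1γ peaks of the 10 genes at 30 min and 6.95% at 0 min, and in 9.33% and 8.61% of the whole HP1γ lists at 30 and 0 min. It was found in 9.68% of LSD1 peaks of the 10 genes at 30 min and 9.5% at 0 min, and in 9.54% and 10.4% of the whole LSD1 lists at 30 and 0 min. The full element was found in no peak of the 10 genes, and in at most 0.00942% of any of the 4 whole HP1γ and LSD1 lists. Among BPTF positions of the 10 genes the core was found in none of the 39 displaced and 3 of the 10 recruited positions, against 11.3% and 14.2% of the whole displaced and recruited lists. The match in the ATP13A4 sequence above is the one in the top HP1γ peak of 30 min.

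The 10 genes lie in a chromosome arm that is itself dense in peaks. HP1γ peaks numbered 8.17 per 100 kb at 30 min and 9.04 at 0 min in the 10 genes, and 2.78 and 3.69 on the rest of 3q. LSD1 peaks numbered 6.49 per 100 kb at 30 min and 11.8 at 0 min in the 10 genes, and 2.28 and 4.79 on the rest of 3q. On 3p the densities were 0.757 and 0.878 for HP1γ and 0.6 and 0.967 for LSD1 at 30 and 0 min, close to those of the other chromosomes, at 0.708 and 0.953 for HP1γ and 0.615 and 1.02 for LSD1. Displaced BPTF positions numbered 1.36 per 100 kb in the 10 genes, 0.652 on the rest of 3q, 0.171 on 3p and 0.165 on other chromosomes.

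**Figure D4:**
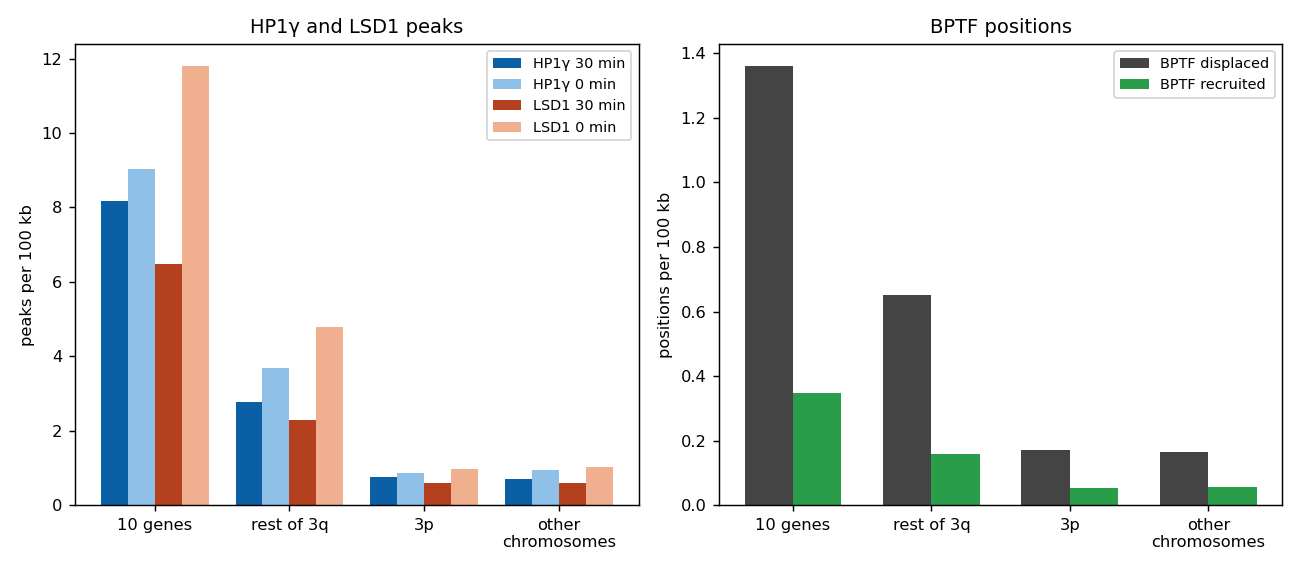
Peaks per 100 kb (y axis) of HP1γ and LSD1 at 30 and 0 min (left) and BPTF positions per 100 kb (right) in the 10 genes, the rest of 3q, 3p and the other chromosomes. The rest of 3q lies between the 10 genes and the remaining genome in every list, and 3p is close to the other chromosomes.

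The median H2A level was also highest in the 10 genes, next on the rest of 3q and lower elsewhere. Divided by the number of annotated transcripts, since the table's RPKM was larger for genes with more transcripts (Spearman correlation 0.83 over 19606 genes), the median level per length at 0, 30 and 60 min was 0.887, 0.96 and 0.925 RPKM per transcript in the 10 genes. It was 0.481, 0.496 and 0.489 in 249 other 3q genes of at least 43.1 kb, the length of the shortest of the 10. It was 0.351 at 0 min in 198 genes on 3p and 0.325 in 6043 genes off chromosome 3. Among the 10 genes FNDC3B had the highest level at 0 min, 1.15 RPKM per transcript, and SPATA16 the lowest, 0.402. SPATA16 stood at percentile 63.2 of all 6500 genes of that length and the other 9 between percentile 96 and 99.3. Among the 259 genes of 3q of that length SPATA16 stood at percentile 31.7 and the other 9 between percentile 79.9 and 94.6, so such levels are shared by other genes of the arm. SPATA16 has only 2 annotated transcripts, so its level turns most on that number. The transcript numbers are of a later annotation than the table, so these levels are approximate. Across 259 genes of 3q the Spearman correlation of this level with peaks per 100 kb was 0.58 for HP1γ at 30 min and 0.63 at 0 min, and 0.47 for LSD1 at 30 min and 0.49 at 0 min. Across 6500 genes of the genome of that length it was 0.36 and 0.49 for HP1γ and 0.3 and 0.41 for LSD1 at 30 and 0 min. Within the 10 genes it was -0.31 and 0.2 for HP1γ and -0.04 and -0.18 for LSD1 at 30 and 0 min. The points share libraries and neighbouring genes share their region, and the part of this level in the peak counts was not tested.

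Paralogues elsewhere in the genome had few peaks, and those on 3q had more. Few peaks are usual off chromosome 3, where the median gene of at least 43.1 kb had 0.0 per 100 kb in each list. The 14 relatives off chromosome 3, among them FNDC3A, PRDM16, ATP11A, PEX5 and NLGN2, held 3 HP1γ peaks at 30 min against 6 at 0 min and 7 LSD1 peaks at 30 min against none at 0 min. The 3 relatives on 3q, ATP13A3, ATP13A5 and MUC20, held 18 HP1γ peaks at 30 min against 19 at 0 min and 14 LSD1 peaks at 30 min against 22 at 0 min. Most of these were in ATP13A5, with 51 peaks over the 4 lists together, against 16 in ATP13A3 and 6 in MUC20. ATP13A5, next to ATP13A4, had the most peaks of the 17 relatives with 44.7 per 100 kb over the 4 lists together, and 7 relatives off chromosome 3 had none in any of the 4. Several relatives are short genes, which can hold few peaks. The highest HP1γ score of MUC20 at 30 min, 40.13, equals that of the peak in the MUC4 flank, so the same peak may be counted in both.

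A list of cancer and signalling genes of 3q, chosen with earlier results known, gave median densities near those of the 10 genes for 17 measured members. Over all 252 other 3q genes of at least 43.1 kb the medians were lower. They were 1.67 and 2.23 per 100 kb for HP1γ and 1.38 and 3.08 for LSD1 at 30 and 0 min. The median of the 10 genes was 8.6 HP1γ peaks per 100 kb at 30 min and 8.29 at 0 min, and 6.03 LSD1 peaks at 30 min and 10.0 at 0 min. The median gene of that list had 5.86 HP1γ peaks per 100 kb at 30 min and 8.73 at 0 min, and 5.31 LSD1 peaks at 30 min and 8.99 at 0 min. The median HP1γ density at 0 min was thus slightly lower in the 10 genes than in that list, and the other 3 medians were higher. Several genes of that list, such as SOX2 and GHSR, are shorter than 43.1 kb, and in a short window few peaks give a high density. These genes weigh as much in the medians as long ones, so nothing is read from the order of the medians. ECT2, a guanine nucleotide exchange factor of cytokinesis, had the most peaks of the list with 57.0 per 100 kb over the 4 lists together, and PAK2, a protein kinase, the fewest with 8.76. A score of 100 was reached in none of the 17 in both HP1γ lists and the LSD1 list at 30 min, and in 2 in the LSD1 list at 0 min. By distance to the median density of the 10 genes in the 4 lists, the nearest of 9539 genes were TDG on chromosome 12, FGF12 and DLG1 on 3q, LRIG3 on chromosome 12 and UTS2B on 3q. Of the nearest 20, 13 lay on 3q and 4 on chromosome 12, where the H2A level per transcript was 0.465 RPKM at 0 min.

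H2A over the 10 genes moved little, and it moved with base composition. Over the gene body MECOM had 15.7, 17.4 and 16.6 RPKM at 0, 30 and 60 min. NLGN1 had 9.01, 10.7 and 9.53 RPKM at these times, and ATP11B 7.27, 8.87 and 7.72. ACAP2 had 13.3, 14.6 and 13.7 RPKM. The 30 min library was the highest of the 3 in these genes, as also in PEX5L, SPATA16 and ATP13A4. PEX5L had 16.0, 17.0 and 16.9 RPKM at 0, 30 and 60 min, and SPATA16 0.803, 0.91 and 0.83. FNDC3B had 13.8, 13.8 and 14.0 RPKM, ATP13A4 11.7, 12 and 11.8, and LMLN 10.5, 10.8 and 10.9. In each of the last 3 genes the libraries lay within a few percent of each other. MUC4 had 24.9, 20.5 and 22.5 RPKM, and was the only one of the 10 with its lowest value at 30 min.

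On the log2 scale with 0.05 RPKM added, the change at 30 min over 0 min was 0.28 in ATP11B (counting standard error 0.028), 0.25 in NLGN1 (0.0059), 0.17 in SPATA16, 0.15 in MECOM and 0.14 in ACAP2. It was 0.09 in PEX5L, 0.04 in LMLN, 0.03 in ATP13A4, 0.0037 in FNDC3B and -0.27 in MUC4 (counting standard error 0.02). The median over the 10 genes was 0.11 and over all 19709 genes tested -0.14, and 9 of the 10 were above 0 and 1 below, where 28.5% of all genes were above and 71.3% below. None was past 0.5 in either direction, where 0.345% of all genes were higher and 1.99% lower (68 and 392 genes, or 294 and 106 once centred on the median of all genes). The counting errors are small because the bodies are long and the depth high, and they do not hold the spread between repeated experiments.

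The order of the changes followed GC content. NLGN1, the gene with the lowest GC content at 35.4%, had the second largest change, and MUC4, with the highest at 53.7%, had the only negative one. The Spearman correlation of change with GC content was -0.94 over the 10 genes, -0.91 over 561 other 3q genes and -0.85 over all 19709, values that share the same 2 libraries. After subtraction of the running median of genes with like GC content, the changes of the 10 genes lay between -0.03 and 0.09 with a median of 0.0042. ATP11B had the largest remaining change, 0.09, and stood at percentile 89.8 of 1526 genes within 1 percentage point of its GC content. NLGN1 stood at percentile 48.3 and MUC4 at percentile 56.2 of such genes.

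**Figure D5:**
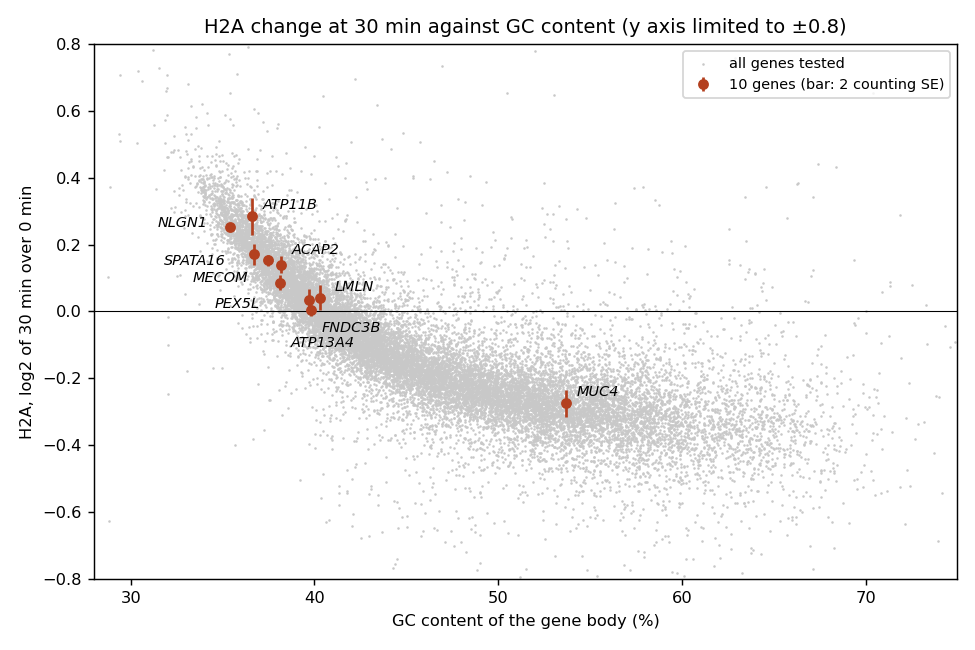
H2A change at 30 min over 0 min (log2, y axis) against GC content of the gene body in percent (x axis), with all tested genes in grey and the 10 genes in colour with bars of 2 counting standard errors. The 10 genes lie within the grey band, from NLGN1 at 35.4% GC to MUC4 at 53.7%.

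At 60 min over 0 min the median change of the 10 genes was 0.05 and that of all genes -0.03, with 9 of the 10 above 0, 1 below and none past 0.5. Over all genes 38.4% were above 0 and 61.2% below, 0.249% were past 0.5 higher and 0.639% lower (49 and 126 genes, or 59 and 96 once centred). The changes lay between -0.14 in MUC4 and 0.09 in ATP11B, and they share the 0 min library with the changes at 30 min. At 60 min over 30 min the median was -0.05 in the 10 genes and 0.09 over all genes, with 3 of the 10 above 0 and 7 below, where 71.5% of all genes were above and 28.3% below. None of the 10 was past 0.5, where 0.756% of all genes were higher and 0.294% lower. After subtraction of the GC trend the medians of the 10 genes were 0.0042 at 60 over 0 min and 0.0008 at 60 over 30 min. The changes in H2A and the peak counts come from separate libraries, and with 1 library at each time they cannot be told apart from differences between preparations.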

How the data were processed

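The authors sequenced 9 immunoprecipitated libraries and aligned them to hg19 (GRCh37), with Bowtie 1.0.0 and HOMER 4.7.2 named in the submitters' processing notes. Per the file headers, H2A was counted over GENCODE version 18 genes on both strands and deposited as RPKM (reads scaled by gene length and library depth). HP1γ and LSD1 were deposited as peak lists with a score per peak, which no source used here defines. The deposited BPTF lists hold positions alone.

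The 10 genes and the lists of relatives and other 3q genes were chosen with earlier results of these data known. The genes named are the 10, the top peak of each list in each, the list genes with the most and fewest peaks per 100 kb, and the 5 genes of at least 20 kb nearest in density. A few others (CADM2, and examples of the relatives) were named after their values were seen. Of the 20 other 3q genes, 3 are not analysed here.

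H2A changes are log2 of RPKM plus 0.05, for genes with a mean of at least 0.1 RPKM. The GC trend is a running median over 501 genes. Low RPKM values are whole multiples of 1 read (within 0.02 reads) at depths near 141 M, 169 M and 133 M reads at 0, 30 and 60 min, read from 24, 17 and 26 values, of which 87.5%, 100% and 100% came out whole. Depths of the other libraries are unknown. Levels per transcript use transcript numbers of GENCODE version 44, which also gave exons and transcript starts. The genome used was not soft-masked, so repeats were measured as 31-base words that recur in the genome. Python 3.11.15, pandas 2.3.3, numpy 2.4.6, scipy 1.17.1 and pysam 0.24.0 were used, and the computations were tested on simulated data. With 1 library per group no test between groups was made. One item is not reported here.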

Additional observations from a re-analysis of the deposited data

How the results depend on the processing

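With scores of at least 50 and at least 100, the 10 genes held 53 and 2 HP1γ peaks at 30 min, 76 and 6 HP1γ peaks at 0 min, 36 and 1 LSD1 peaks at 30 min, and 146 and 9 LSD1 peaks at 0 min. Both the HP1γ and the LSD1 peaks were fewer at 30 min than at 0 min at each of these thresholds. HP1γ peaks of 0 min shared with 30 min numbered 29 with at least 50% of the peak covered, 87 with edges within 1 kb and, among the 76 with scores of at least 50, 4 shared with such a peak. For LSD1 these numbers were 24, 86 and, among 146, 4. Peaks shared between HP1γ and LSD1 at 0 min numbered 125 within 1 kb and 14 of 76 with scores of at least 50, and at 30 min 16 with 50% covered, 56 within 1 kb and 2 of 53 with scores of at least 50. The median H2A change centred on all genes was 0.26 at 30 over 0 min, 0.081 at 60 over 0 min and -0.14 at 60 over 30 min. With the GC trend taken off it was 0.0042, 0.0042 and 0.0008, so that the change at 60 over 30 min turned from negative to about 0. Genes past 0.5 numbered 161 and 23 at 30 and 60 min over 0 min with a mean of at least 1 RPKM, and 61 and 7 with a pseudocount of 0.5, instead of 460 and 175. These 2 settings test fewer genes or shrink the change of low genes by construction; elsewhere the cause was not tested. Of 58 alternative values for 15 results, 29 stayed within 1.5 times the count or within the spread, among them all those for gene spans (the body alone, 20 kb flanks, and the spans of GENCODE version 44, an alternative chosen after seeing the data). No paired analysis was possible because each antibody and time had 1 library and no replicate number. Limits of these results include that single library and, for the peaks, the unknown depth and score definition.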
